A study of Mus musculus with 4 samples.

Results

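The brain hemisphere opposite a growing glioma was compared with the same hemisphere of sham-injected mice, in young animals. The comparison takes in 22766 barcodes of 46097 in the series: 11701 of the 12070 barcodes of the young sham library and 11065 of the 12032 of the young tumour library. Kept barcodes, each standing for about 1 cell, had at least 500 unique molecular identifiers (UMIs, which count captured RNA molecules), at least 200 detected genes, at most 20% of UMIs from mitochondrial genes and fewer than 3 UMIs of Hmga2, a chromatin protein gene. Genes were then ranked by the ratio of tumour to sham over all kept barcodes and within 4 classes cut by summed marker UMIs: astrocytes (Slc1a2, Slc1a3 and Aqp4, at least 8), endothelium (Cldn5 and Flt1, at least 4), oligodendrocytes (Mog, Mag and Ermn, at least 6) and microglia (P2ry12 and Tmem119, at least 3). A barcode could pass more than 1 gate and was then counted in each.

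The study used mice of 8 weeks (young) and 93 weeks (old) that received either 1000 cells of CT2A-GFP-luc (a GFP- and luciferase-tagged murine glioma line) or phosphate-buffered saline as the sham. The uninjected hemisphere was taken 2 weeks later, dissociated with an adult brain kit and run by droplet 3' single-cell RNA sequencing, which gave 4 libraries. Apart from the strain field, the labels give the injected material as the only difference between the 2 young groups used here. The study's description gives C57BL/6 for all mice, and the strain field gives a name that differs in its last digit from library to library. The number of mice behind a library is not given in the sources used here. Each group is 1 library, so no test of tumour against sham was possible, and every interval below covers counting error only.

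Major histocompatibility complex (MHC) class II molecules present peptides to CD4 T cells and are made mainly by dendritic cells, macrophages and B cells, whereas MHC class I molecules are made by nearly all nucleated cells. Interferons raise MHC class I, antigen-processing and antiviral genes in most brain cell types. Immediate early genes such as Fos and Jun are switched on within minutes by activity, stress and also by enzymatic dissociation of tissue.

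The kept barcodes held 63548702 UMIs in the young sham and 58896942 in the young tumour library, with medians of 4055 and 3794 UMIs and 1752 and 1681 genes per barcode. Between 27 and 53 barcode sequences were shared by any pair of the 4 libraries, and 40 by the 2 young libraries. The Hmga2 limit removed 510 barcodes of the young tumour library, which held 21.3% of its UMIs at a median of 26193.5 UMIs, and 0 of the young sham library. A further 135 kept tumour and 35 kept sham barcodes held 1 or 2 Hmga2 UMIs.

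The make-up of the libraries differed. The astrocyte gate held 3172 sham barcodes (27.1%, exact 95% binomial interval 26.3 to 27.9) and 2217 tumour barcodes (20.04%, 19.3 to 20.8). The microglia gate held 35.8% and 29.5%, the endothelium gate 14.2% and 13.1%, and the oligodendrocyte gate 9.66% and 12.5%. Barcodes in no gate made up 20.4% of the sham and 28.7% of the tumour library. Thus 3 gates held a smaller share in the tumour library and 1 a larger share, and ratios over all kept barcodes carry these differences. Barcodes in more than 1 gate numbered 805 (6.88%) in the sham and 423 (3.82%) in the tumour library, and the astrocyte and endothelium gates shared 311 and 94.

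Each gate was high in its own markers but was not pure. Summed over 6 markers that no gate used, astrocytes had 6276 CPM (a count scaled to a class total of 1000000 UMIs) in sham and 6045 in tumour, endothelium 8873 and 8540, oligodendrocytes 11279 and 11402, and microglia 14359 and 12996. Few barcodes lay at a limit: 92 sham and 85 tumour astrocytes had exactly 8 gate UMIs, against 85 and 104 barcodes with 7 that were left out. In microglia 140 and 128 barcodes were at the limit and 164 and 228 just below it. In the astrocyte gate the 6 endothelial markers summed to 1573 CPM in sham and 506 in tumour, and the 6 microglia markers to 1050 and 737, with no marker at 0. Markers of choroid plexus epithelium, 6 in number and none at 0, summed to 13240 and 10515 CPM in the endothelium gate, more than its own markers. They summed to 7150 and 5161 in oligodendrocytes, 9647 and 4789 in microglia and 5054 and 3410 in astrocytes.

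A gene was tested where it averaged at least 10 CPM over the 2 libraries and had at least 20 UMIs, and it was called where the ratio was at least 1.5 in either direction and its exact Poisson interval excluded 1. Over all kept barcodes 334 of 10030 genes were higher in tumour (3.33%) and 214 lower (2.13%). In astrocytes 491 of 10295 were higher (4.77%) and 515 lower (5%), and in microglia 179 of 8751 were higher (2.05%) and 281 lower (3.21%). Endothelium had 117 of 9140 higher (1.28%) and 82 lower (0.897%), and oligodendrocytes 65 of 8157 higher (0.797%) and 116 lower (1.42%). The median log2 ratio of all tested genes lay between -0.07 over all barcodes and -0.01 in endothelium.

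Called in the same direction in all 4 classes were 20 genes higher in tumour (0.288% of the 6945 genes tested in every class) and 9 genes lower (0.13%). Among those 6945 genes, 142 were higher in at least 1 class (2.04%) and 41 in at least 3 (0.59%). Lower were 420 in at least 1 class (6.05%) and 25 in at least 3 (0.36%). The higher genes were antigen-presentation genes (H2-Aa, H2-Ab1, H2-Eb1, Cd74, H2-DMa, H2-Q7, H2-K1), genes of leukocytes and macrophages (Ccl5, Cd52, Ms4a6c, Lyz2, Lgals3, Tgfbi), the complement gene C4b, the interferon-induced Ifi27l2a, and S100a4, Lgals1, Tmsb10, Fabp7 and Gm10076. The lower genes were the immediate early genes Fos, Fosb, Junb and Atf3, the heat shock genes Hspa1a and Hspa1b, the neutrophil genes S100a8 and S100a9, and Brd1. The gates are not independent here, because some barcodes are in more than 1 of them.

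**Figure D1:**
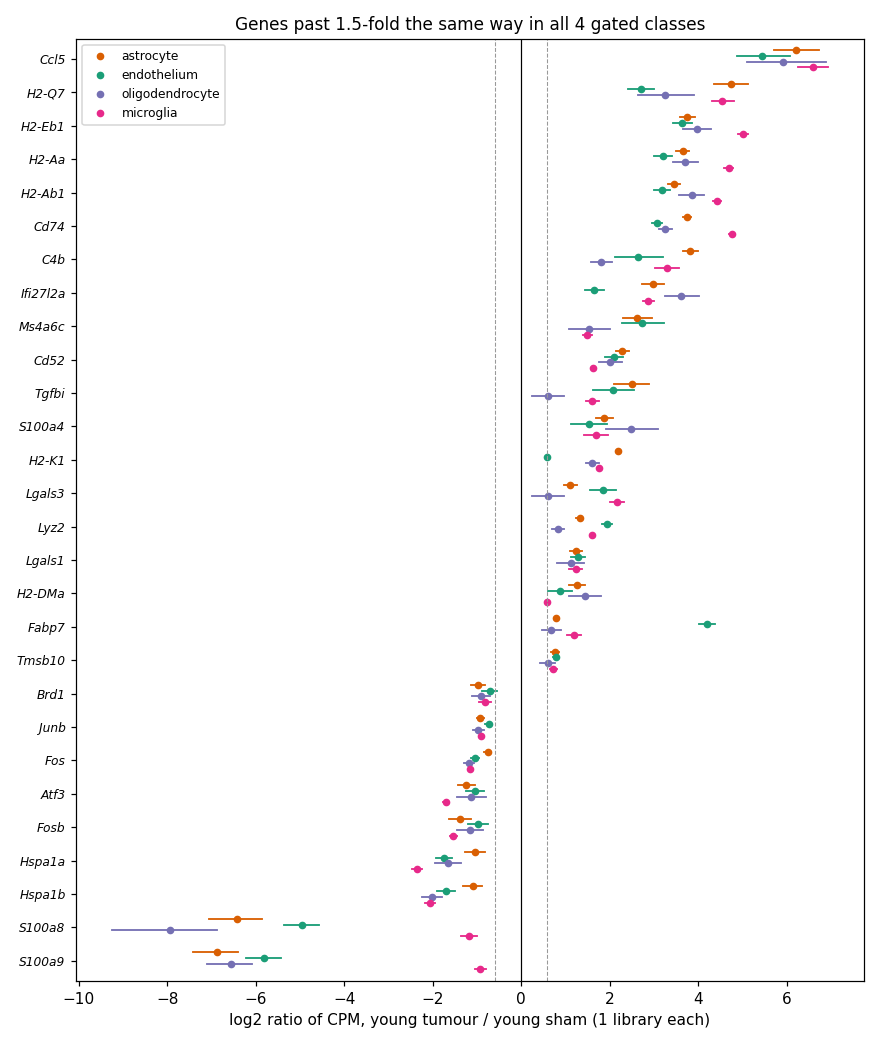
Log2 ratio of CPM, young tumour over young sham, for 28 of the 29 shared genes in astrocytes, endothelium, oligodendrocytes and microglia; bars are exact 95% Poisson intervals, which cover counting error only, and the unnamed gene Gm10076 is not drawn. The 19 higher genes drawn lie right of 0 in every class and the 9 lower genes left of it, as the choice of genes requires, while the classes differ widely in size for Fabp7 and H2-K1.

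MHC class II genes were higher in tumour in every class, H2-Aa by 9.21-fold to 25.7-fold. H2-Aa, which encodes an MHC class II alpha chain, was at 21.9 CPM in sham and 275 in tumour astrocytes (ratio 12.6, 11.3 to 13.9) and at 40.3 and 1038 in microglia (25.7, 24 to 27.7). It was at 19.8 and 182 in endothelium (9.21, 8.05 to 10.6) and at 12.2 and 158 in oligodendrocytes (12.95, 10.7 to 15.8). The tumour value was the higher of the pair in each class and highest in microglia. Without predicted doublets H2-Aa was at 5.38-fold in astrocytes, 2.40-fold in endothelium, 10.4-fold in oligodendrocytes (1.39 and 14.4 CPM, under the 10 CPM minimum) and 25.4-fold in microglia. Cd74, the invariant chain that guides class II molecules through the cell, stood at 55.3 and 743 CPM in astrocytes and 114 and 3078 in microglia. H2-DMa, which helps to load peptide onto class II molecules, had ratios of 2.40, 1.84, 2.71 and 1.504 in astrocytes, endothelium, oligodendrocytes and microglia, and of 1.00 in endothelium without doublets. Of 10 class II genes on the list, every tested member was higher in astrocytes (6 of 6), endothelium (6 of 6) and oligodendrocytes (5 of 5), and 6 of 8 in microglia, with median log2 ratios of 3.55, 3.13, 3.70 and 2.59. Without doublets these medians were 2.34, 1.23, 2.23 and 2.56.

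The promoters of a few shared antigen-presentation genes are shown because class II promoters are known for a conserved module that holds an X2 box, which resembles the cyclic AMP response element (CRE), and a Y box, which is a CCAAT box. Printed are the 250 bases before the RefSeq start, in GRCm38.p6, 5′ to 3′ on the gene's strand, for H2-Aa (chr17:34287824-34288073, minus strand), H2-Eb1 (chr17:34305617-34305866, plus strand) and H2-K1, a classical class I gene (chr17:34000348-34000597, minus strand). Capitals mark a CCAAT box, printed as ATTGG where it lies on the other strand, or a CRE (TGACGTCA).
H2-Aa: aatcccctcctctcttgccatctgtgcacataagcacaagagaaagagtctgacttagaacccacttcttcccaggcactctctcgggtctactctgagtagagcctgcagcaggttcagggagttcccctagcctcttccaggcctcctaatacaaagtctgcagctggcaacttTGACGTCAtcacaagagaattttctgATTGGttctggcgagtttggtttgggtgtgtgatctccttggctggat
H2-Eb1: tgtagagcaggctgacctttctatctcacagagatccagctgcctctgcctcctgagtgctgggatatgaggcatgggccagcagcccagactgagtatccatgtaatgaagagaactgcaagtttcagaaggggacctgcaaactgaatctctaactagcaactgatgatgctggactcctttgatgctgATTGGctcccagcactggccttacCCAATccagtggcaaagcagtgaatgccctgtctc
H2-K1: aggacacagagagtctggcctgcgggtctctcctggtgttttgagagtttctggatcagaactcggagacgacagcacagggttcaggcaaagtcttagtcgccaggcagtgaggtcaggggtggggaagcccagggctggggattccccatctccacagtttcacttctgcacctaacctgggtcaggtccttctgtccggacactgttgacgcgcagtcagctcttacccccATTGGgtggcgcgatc
In H2-Aa the CRE starts 74 bases and the CCAAT box 48 bases before the start. H2-Eb1 has CCAAT boxes at 59 and 35 bases, and H2-K1 has a CCAAT box at 16 bases. Of the 29 shared genes 21 matched the promoter table, 12 of them higher and 9 lower in tumour. CCAAT (both strands) was found in 7 of the 12 higher and 3 of the 9 lower genes, against 33.8% of 32851 promoters of this length. TGACGTCA was found in H2-Aa only, against 1.55% of all. The core of the interferon-stimulated response element was found in Tgfbi only (2.98% of all), the AP-1 site TGANTCA in H2-DMa only (6.75%), and the gamma-activated site TTCNNNGAA in none of the 21 (7.02%). These are exact matches of letters to a fixed pattern for each site and say nothing of binding. Variants that differ from a pattern were not searched for. Whether H2-K1 or the other shared genes hold a variant interferon-stimulated response element was therefore not tested.

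The class II UMIs sat on few barcodes. H2-Aa was seen in 1.07% of sham and 10.2% of tumour astrocytes at median depths of 4221 and 3592 UMIs, in 1.58% and 17.7% of microglia, in 1.75% and 8.65% of endothelium and in 0.885% and 8.08% of oligodendrocytes. Oligodendrocytes of healthy brain are not known for class II molecules, but no class was shown to lack them in the tumour library. Median depths of oligodendrocytes were 6816.5 and 5923.5 UMIs, so the shares of the classes are not at like depth. Free RNA was not measured, and its part in these shares was not tested. Barcodes with at least 10 H2-Aa UMIs numbered 8 in sham and 37 in tumour astrocytes, and those 37 held 88.7% of the class's H2-Aa UMIs. Of the 37, 33 held UMIs of Ptprc, the pan-leukocyte gene CD45, against 132 of the other 2180 tumour astrocytes. Their astrocyte markers summed to 2130 CPM, against 6223 in the others, and their median depth was 12479 UMIs. Deep barcodes reach 10 UMIs more readily. In endothelium 23 tumour barcodes held at least 10 H2-Aa UMIs, 17 with Ptprc, and in oligodendrocytes 20, 16 with Ptprc. In microglia they numbered 15 in sham and 200 in tumour, and in barcodes of no gate 112 and 738.

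The class II genes also stood in nearly a single proportion to each other in every class of the tumour library. Cd74 had 2.70 UMIs per H2-Aa UMI in astrocytes (2.59 to 2.81), 2.94 in endothelium, 2.74 in oligodendrocytes and 2.97 in microglia (2.91 to 3.02), and 2.70 over all barcodes. H2-K1 did not keep such a proportion, with 2.81, 3.42, 1.06 and 1.07 UMIs per H2-Aa UMI. C4b had 0.895 per H2-Aa UMI in astrocytes, 0.456 in oligodendrocytes and 0.0631 in microglia. Without barcodes holding any UMI of 6 leukocyte genes, H2-Aa stood at 5.36 and 32.3 CPM in astrocytes, 1.70 and 34.4 in endothelium and 0.706 and 12.9 in oligodendrocytes. Only 4 of the 20 higher genes then stayed called in all 4 classes (C4b, Cd74, Fabp7 and Gm10076), with microglia left as they were. The minimum of 10 CPM ended part of these calls, since 9 of the 20 could still be tested in every class, and 12 kept the ratio and its interval if the minimum is ignored. H2-Aa then had a ratio of 6.03 in astrocytes, 20.2 in endothelium and 18.3 in oligodendrocytes, the last untested. Summed T cell markers, none of them tested in any class, moved in the same direction. They went from 7.61 to 44.5 CPM in astrocytes, 5.32 to 30.6 in endothelium, 3.24 to 32.6 in oligodendrocytes and 0.96 to 40.8 in microglia. Of the 5 markers 1 was at 0 in sham microglia and none elsewhere. Summed B cell markers went from 10.6 to 5.07 CPM in astrocytes and 17.6 to 9.03 in endothelium. They went from 2.48 to 6.14 in oligodendrocytes and 38.9 to 44.3 in microglia. Of the 4 B cell markers 1 was at 0 in sham endothelium, sham oligodendrocytes and tumour microglia. The part of T and B cells in the other shared genes was not tested.

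**Figure D2:**
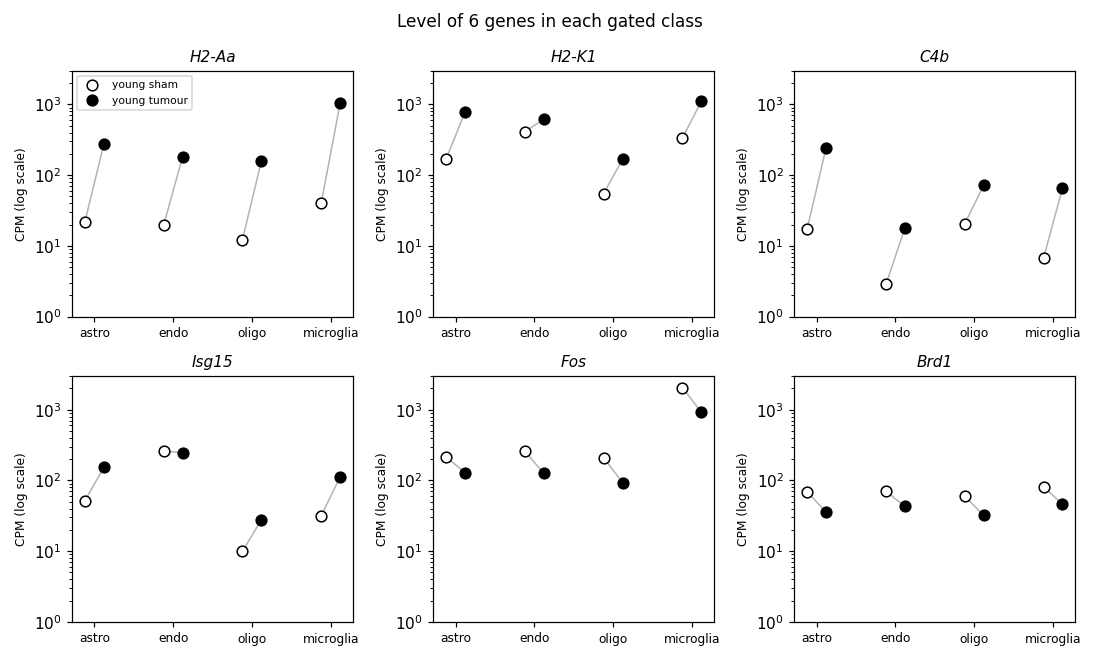
CPM on a log axis in the young sham (open) and young tumour (filled) libraries for H2-Aa, H2-K1, C4b, Isg15, Fos and Brd1 in the 4 classes. Each point is 1 library, and a grey line joins the sham and tumour points of a class. No intervals are drawn. H2-Aa and C4b are far higher in tumour in all classes, Isg15 is not higher in endothelium, and Fos and Brd1 are lower in every class.

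Class I genes differed by class. H2-K1, a classical class I heavy chain, was at 169 CPM in sham and 774 in tumour astrocytes (4.57, 4.39 to 4.76), 331 and 1112 in microglia (3.36, 3.26 to 3.46), 55.0 and 167 in oligodendrocytes (3.04, 2.75 to 3.36) and 412 and 622 in endothelium (1.51, 1.45 to 1.57). The endothelial ratio just passed the limit of 1.5, and it was 1.23 without predicted doublets, 1.30 without barcodes of more than 1 gate and 1.31 without leukocyte UMIs, none of them called. H2-Q7, a non-classical class I gene, had the larger ratios, from 6.52 in endothelium (9.21 to 60.0 CPM) to 26.5 in astrocytes (3.41 to 90.3 CPM). H2-Q7 and its class I neighbours are near-identical copies, so their counts are uncertain. B2m, the class I light chain, stood at 236 and 526 CPM in astrocytes, 97.5 and 261 in oligodendrocytes, 1402 and 2447 in microglia and 605 and 787 in endothelium, where its ratio of 1.30 was not called. Of the class I and antigen-processing list, 10 of 16 tested genes were higher in astrocytes (median log2 ratio 1.11), 9 of 12 in oligodendrocytes (1.45), 12 of 17 in microglia (0.95) and 2 of 16 in endothelium (0.19), and none was lower.

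H2-K1 was present in many more barcodes than H2-Aa. It was seen in 43.7% of sham and 46.2% of tumour astrocytes, in 75.7% and 76.3% of endothelium, in 20.8% and 31.0% of oligodendrocytes and in 68.4% and 76.6% of microglia. In astrocytes its higher level lay in few barcodes: 170 tumour barcodes with at least 10 UMIs held 82.9% of the UMIs, against 17.3% on 40 sham barcodes. Of those 170, 57 held Ptprc UMIs, and their astrocyte markers summed to 1419 CPM against 7978 in the others.

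Interferon-response genes were higher in 3 classes and near their sham level in endothelium. Of the 37 genes on the list, 25 of 32 tested were higher in astrocytes (median log2 ratio 1.34), 23 of 29 in microglia (1.08), 9 of 12 in oligodendrocytes (1.08) and 2 of 33 in endothelium (0.04), and none was lower. Isg15, a ubiquitin-like antiviral protein, was at 51.8 CPM in sham and 153 in tumour astrocytes, 31.7 and 112 in microglia, 9.93 and 27.7 in oligodendrocytes, and 260.2 and 248 in endothelium. Sham endothelium thus already had more Isg15 than any other class of either library. The interferon-induced GTPase Gbp2 stood at 24.9 and 106 CPM in astrocytes, 9.15 and 45.2 in microglia and 88.1 and 90.6 in endothelium. Irf7, which drives type I interferon, had a ratio of 6.26 in microglia, 2.39 in astrocytes and 1.13 in endothelium. The 2 endothelial genes called were Ifi27l2a (21.1 and 66.2 CPM, 3.14) and Gbp6 (8.49 and 17.4, 2.05).

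C4b, which encodes complement component C4, showed its largest tumour level in astrocytes. It was at 17.5 CPM in sham and 246 in tumour astrocytes (14.1, 12.6 to 15.9), 20.6 and 72.0 in oligodendrocytes (3.49, 2.97 to 4.12), 6.72 and 65.5 in microglia (9.74, 8.12 to 11.8) and 2.86 and 17.9 in endothelium (6.25, 4.34 to 9.22). In astrocytes 6 sham and 74 tumour barcodes had at least 10 C4b UMIs, and 7 of the 74 held Ptprc UMIs. The 74 held 81.7% of the C4b UMIs at a median depth of 22374.5 UMIs, and their astrocyte markers summed to 1413 CPM against 6929 in the rest. The endothelial call ended without barcodes of more than 1 gate (2.13 and 4.41 CPM) and without predicted doublets. The astrocyte ratio stayed at 12.6 or more under these 2 settings and without leukocyte UMIs. In microglia the ratio was 9.74 or more under these 2 settings. The leukocyte setting leaves microglia as they were, so it says nothing of their ratio.

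Other reactive astrocyte genes were higher too in the astrocyte gate, where 14 of 20 tested list members were higher and none lower (median log2 ratio 1.07, against -0.03 over all genes). The list shares C4b, Gbp2, Psmb8 and H2-D1 with groups already described. Ependymal markers moved with it in the astrocyte gate, from 1475 to 2512 CPM summed (5 of 5 higher), as did olfactory ensheathing markers, from 34.1 to 111 (1 of 2 tested higher), and markers of the Hmga2-rich barcodes, from 41.8 to 75.5 (2 of 3 tested higher). None of these markers was at 0, and their part in the result was not tested. Gfap, the intermediate filament of reactive astrocytes, was at 54.3 CPM in sham and 341 in tumour (6.28, 5.86 to 6.73). On 89 tumour barcodes of the gate with at least 10 Gfap UMIs lay 86.5% of them, and 6 of the 89 held Ptprc UMIs. Astrocyte markers summed to 1970 CPM in the 89, against 6879 in the other tumour barcodes of the gate. Median depths were 19120 and 3509 UMIs. In sham 17 such barcodes held 45.2% of the Gfap UMIs, with astrocyte markers at 4336 CPM. Serpina3n, a protease inhibitor of reactive glia, stood at 3.89 and 42.5 CPM, Vim at 420.3 and 705, and the complement gene C3 at 8.99 and 85.0. Of 18 homeostatic astrocyte genes, such as transporters and channels, 0 were called in astrocytes in either direction (median -0.0047).

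Microglia showed 8 of 17 disease-associated genes higher and none lower, with a median log2 ratio of 0.32. Apoe, a lipid carrier, was at 2765 CPM in sham and 10112 in tumour microglia (3.66, 3.62 to 3.69). Cst7, a cystatin of phagocytic microglia, stood at 9.55 and 81.3 CPM, the receptor Axl at 10.0 and 29.8, and Spp1, osteopontin, at 27.7 and 77.0. Monocyte markers moved with the list in the same gate, from 36.8 to 86.7 CPM summed over 5 (2 of 3 tested higher, none at 0), and their part was not tested. Trem2 at 2543 and 2450 CPM and Tyrobp at 2708 and 2976, the receptor and adaptor of this response, were not called. None of 18 homeostatic microglia genes was called either (median -0.16), although 2 of them set the gate. Inflammatory genes split in microglia, with 7 of 16 higher and 8 lower. The chemokines Cxcl9 (0.607 and 136 CPM), Ccl5 (3.94 and 378) and Ccl7 (3.69 and 32.1) were higher. The cytokines Tnf (52.9 and 24.0) and Il1a (136 and 66.3), the chemokines Ccl3 (449 and 248) and Ccl4 (878 and 419.6) and the feedback regulator Nfkbiz (107 and 53.5) were lower.

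**Figure D3:**
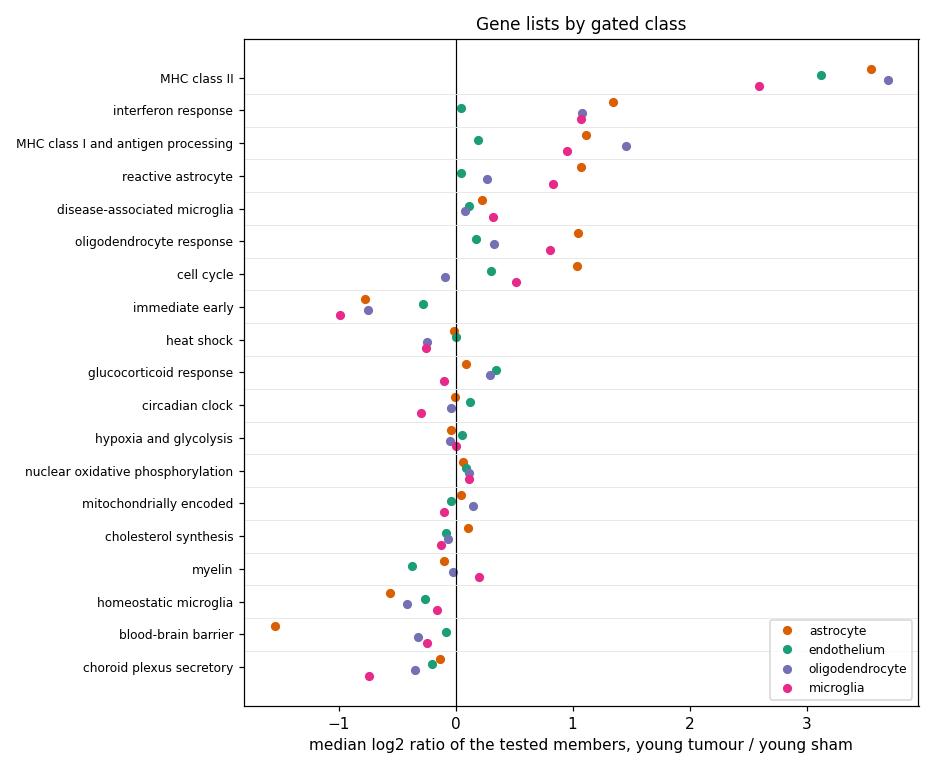
Median log2 ratio, young tumour over young sham, of the tested members of 19 gene lists in each of the 4 classes. The position along the x axis gives the median and colour gives the class. Class II medians lie between 2.59 and 3.70 in every class, the interferon list is near 0 in endothelium only, and the immediate early list is below 0 in all 4.

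Immediate early genes were lower in tumour, most evenly in microglia. Of 30 listed genes, 17 of 19 tested were lower in microglia (median log2 ratio -0.99), 14 of 20 in astrocytes (-0.78), 12 of 18 in oligodendrocytes (-0.75) and 4 of 23 in endothelium (-0.28), and none was higher. Fos, a subunit of the AP-1 transcription factor, was at 2063 CPM in sham and 924 in tumour microglia (0.448, 0.439 to 0.457), 217 and 128 in astrocytes (0.591), 259.7 and 126 in endothelium (0.485) and 210.5 and 93.0 in oligodendrocytes (0.442). Microglia carried far more Fos than the other classes in both libraries. Fosb had ratios from 0.346 in microglia to 0.508 in endothelium, Junb from 0.511 in oligodendrocytes to 0.602 in endothelium, and Atf3, a stress-induced factor, from 0.306 in microglia to 0.483 in endothelium. Egr1, a zinc-finger factor, missed the shared set only in endothelium, at a ratio of 0.669.

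In astrocytes the direction turned without barcodes of more than 1 gate and held without predicted doublets. Without barcodes of more than 1 gate Fos in astrocytes was at 64.2 CPM in sham and 109 in tumour, the opposite direction, and the list's median was 0.30. Junb (57.2 and 77.5), Atf3 (14.3 and 17.5) and Hspa1a (11.8 and 15.3) likewise stood higher in tumour astrocytes. Without doublets the astrocyte median was -0.83, with Fos at 106 and 66.0 CPM (log2 ratio -0.69), Junb at -1.02, Fosb at -1.58 and Atf3 at -1.05. In microglia without these barcodes Fos kept a ratio of 0.434 and Atf3 of 0.290. Endothelium and oligodendrocytes kept Fos at 0.546 and 0.371. Of the 9 lower genes, 1 (Brd1) was still called in all 4 classes without barcodes of more than 1 gate, and 6 without doublets. Under these settings 8 and 6 of the 9 could still be tested in every class. Of the sham astrocytes 19.6% passed another gate as well, against 12.2% of the tumour astrocytes.

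The inducible heat shock genes Hspa1a and Hspa1b, which encode the chaperone HSP70, were lower in each class. Hspa1a was at 231 CPM in sham and 45.3 in tumour microglia (0.196, 0.180 to 0.213), 107 and 31.9 in endothelium (0.299), 42.5 and 13.6 in oligodendrocytes (0.320) and 37.1 and 18.0 in astrocytes (0.487). Hspa1b had ratios of 0.240, 0.308, 0.248 and 0.467 in the same order. The 2 genes are near-identical copies, so their reads are hard to assign and each counts as uncertain on its own. Their promoters are shown because the pair is nearly identical there too. Bases before the start are not part of the transcript and do not bear on read assignment, and the transcripts were not compared here. Printed are 250 bases before the RefSeq start in GRCm38.p6, both on the minus strand, for Hspa1a (chr17:34972157-34972406) and Hspa1b (chr17:34959239-34959488), with the CCAAT box (as ATTGG, 67 bases before the start) in capitals.
Hspa1a: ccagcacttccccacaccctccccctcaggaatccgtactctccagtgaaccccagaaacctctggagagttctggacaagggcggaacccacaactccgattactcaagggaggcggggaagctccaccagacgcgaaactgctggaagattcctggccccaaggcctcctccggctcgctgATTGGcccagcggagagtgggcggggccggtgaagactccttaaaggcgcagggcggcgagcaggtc
Hspa1b: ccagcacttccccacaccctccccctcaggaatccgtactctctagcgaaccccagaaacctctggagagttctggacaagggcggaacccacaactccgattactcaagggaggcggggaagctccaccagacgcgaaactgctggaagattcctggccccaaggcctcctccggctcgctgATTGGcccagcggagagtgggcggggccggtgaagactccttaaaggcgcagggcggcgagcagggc
They match at 247 of 250 bases. An exact match to a fixed pattern for the heat shock element was in none of the 21 shared genes searched, against 0.466% of promoters of this length. Imperfect forms of the element were not searched for, so whether the Hspa1a and Hspa1b promoters hold any was not tested. Few other heat shock genes were called: 5 of 17 tested were lower in microglia (also Hspb1, Hsp90aa1 and Dnajb1), 3 of 18 in astrocytes, 3 of 17 in oligodendrocytes and 2 of 18 in endothelium.

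Brd1, a scaffold of histone acetyltransferase complexes, was lower by a similar amount in each class. It was at 69.5 CPM in sham and 35.4 in tumour astrocytes (0.509, 0.455 to 0.568), 70.2 and 42.8 in endothelium (0.610, 0.541 to 0.687), 59.7 and 31.9 in oligodendrocytes (0.534, 0.464 to 0.615) and 81.5 and 46.1 in microglia (0.566, 0.516 to 0.619). The 4 intervals overlap. It was seen in 28.5% of sham and 14.4% of tumour astrocytes, 34.8% and 21.2% of endothelium, 35.3% and 18.8% of oligodendrocytes and 29.0% and 17.2% of microglia, with at most 1 barcode of a class and library at 10 or more UMIs. In barcodes of no gate the share was 19.9% in sham and 13.9% in tumour. Brd1 was called lower in all 4 classes without doublets, without barcodes of more than 1 gate and without leukocyte UMIs. After thinning every barcode to 1000 UMIs it was no longer called in all 4, and at 2-fold or at a minimum of 50 CPM it was not either.

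S100a8 and S100a9, the calprotectin subunits of neutrophils, had the lowest shared ratios in astrocytes, endothelium and oligodendrocytes, where they rested on few sham barcodes. S100a9 was at 333 CPM in sham and 2.83 in tumour astrocytes, 323 and 5.74 in endothelium, 328 and 3.48 in oligodendrocytes and 97.1 and 51.3 in microglia. In the sham library 5 barcodes held 94.9% of the astrocyte, 96.1% of the endothelial and 96.0% of the oligodendrocyte UMIs of S100a9. S100a8 behaved alike, at 177 and 2.08 CPM in astrocytes. Over all kept barcodes 5 neutrophil markers summed to 3285 CPM in sham and 452 in tumour. On barcodes of no gate lay 90.9% of the kept sham and 94.5% of the kept tumour S100a9 UMIs.

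Among the remaining shared genes, Fabp7, a fatty acid binding protein of astrocytes and radial glia, was higher in each class but by very different amounts. It was at 324 CPM in sham and 562 in tumour astrocytes (1.74, 1.68 to 1.80) and at 22.7 and 415 in endothelium (18.3, 16.2 to 20.7). In tumour endothelium 21 barcodes held 95.9% of its UMIs. Their endothelial markers summed to 1577 CPM, against 8679 in the other 1424. Without the 5 barcodes richest in Fabp7 the ratio was 0.732 in oligodendrocytes and 0.958 in microglia.

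Lyz2, the lysozyme of macrophages and neutrophils, stood at 453 and 1369 CPM in microglia (3.02) and 92.4 and 231 in astrocytes (2.50). Ms4a6c, a membrane protein of monocytes and macrophages, had ratios of 6.15, 6.67, 2.89 and 2.82 in astrocytes, endothelium, oligodendrocytes and microglia. Ccl5, a chemokine of T cells and natural killer cells, had the largest shared ratios, from 43.3 in endothelium (1.98 and 86.0 CPM) to 95.9 in microglia (3.94 and 378 CPM). Of the Ccl5 UMIs on kept barcodes of the tumour library 78.5% lay on barcodes of no gate. The tumour barcodes left out for Hmga2 held Ccl5 at 1202 CPM, against 645 in the kept ones. Tmsb10, an actin-binding peptide, had ratios of 1.71, 1.71, 1.51 and 1.65, and the galectin Lgals3 just passed the limit in oligodendrocytes, at 1.52. Over all kept barcodes 10 of 10 tested T and natural killer cell genes were higher, with a median log2 ratio of 3.34.

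Several of the largest ratios over all kept barcodes rested on very few barcodes. Igha and Jchain, antibody genes of plasma cells, went from 1 to 5277 and from 19 to 7623 UMIs, and Mcpt2, a mast cell protease, from 0 to 6128, which is at least 2204-fold higher against a floor of 3 UMIs in the library. The 5 richest barcodes held 96.6%, 74.7% and 85.2% of these tumour UMIs. Without predicted doublets Jchain was at 0.275 and 10.7 CPM, no longer called, and Igha at 0.018 and 27.4. Cxcl9, an interferon-gamma-induced chemokine for T cells, was spread more widely, with 10.6% of its UMIs on 5 barcodes, and stood at 0.425 and 164 CPM. The lowest were Bpifa1 at 2774 UMIs in sham (99.4% on 5 barcodes) and 0 in tumour (a ratio of at most 0.00117 with the floor of 3 UMIs), left at 0.349 CPM in sham without doublets and then not called, and neutrophil granule genes such as Ltf (84.0 and 7.76 CPM), Ngp (321 and 31.5) and Camp (422 and 44.1).

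Changes called in 1 class while the other 3 stayed within 0.32 of 0 on the log2 scale were counted among the 6945 genes tested in every class. They numbered 102 in astrocytes, 51 in microglia, 17 in endothelium and 15 in oligodendrocytes. Unnamed, mitochondrial, ribosomal protein and hemoglobin genes were left out. The classes stood in the same order by all their calls, from 491 higher and 515 lower in astrocytes to 65 higher and 116 lower in oligodendrocytes. In astrocytes the 5 largest were endothelial genes, all lower in tumour: the adhesion receptor Adgrf5 (177 and 51.7 CPM), the phosphatase Ptprb (301 and 91.2), the VEGF receptor Kdr (97.7 and 30.1), Ets1 (79.5 and 24.6) and the transporter Slco1a4 (279.9 and 90.0). Leaving out barcodes of more than 1 gate removes astrocyte barcodes by their endothelial UMIs, and Adgrf5, Ptprb, Kdr and Ets1 then stood higher in tumour astrocytes. Without predicted doublets they were lower by more, with log2 ratios of -2.23, -2.08, -2.21 and -2.35 against -1.77, -1.72, -1.70 and -1.69. The blood-brain barrier list was lower in 15 of 19 members in astrocytes (median -1.55) and in 0 of 19 in endothelium (-0.08), where these genes belong. The astrocyte median was -1.98 without doublets and -0.20 without barcodes of more than 1 gate. In endothelium the 5 largest included Gpm6b, a membrane protein of glia and neurons, at 231 and 128 CPM, Tspan7 at 126 and 57.7, and Ncam1, a neural adhesion molecule, at 25.3 and 48.1. In microglia they were Cdh11, Pcdh7, Epdr1, Anxa2 and Atp1b1, each lower (ratios 0.375 to 0.467), beside 11 of 14 choroid plexus secretory genes that were lower there too. All 6 choroid plexus markers were also lower in tumour microglia, and their part in these calls was not tested.

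Oligodendrocytes had the smallest set of their own, and also the fewest calls of any class in both directions together. Polr3e, a subunit of RNA polymerase III, was at 96.2 CPM in sham and 174 in tumour (1.81, 1.67 to 1.97), with 2.46% of tumour UMIs on 5 barcodes, and Mfge8, a bridging protein for phagocytosis, at 58.3 and 28.9 (0.496, 0.428 to 0.574). Sgk1, a kinase induced by glucocorticoids, stood at 262 and 749 CPM in oligodendrocytes (2.86, 2.73 to 3.00), against ratios of 1.10, 1.27 and 0.932 in astrocytes, endothelium and microglia. The wider glucocorticoid list had 2 of 16 tested members higher and 1 lower in oligodendrocytes. None of 20 myelin genes was called in oligodendrocytes (median -0.02).

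Endothelial chemokine transcripts of the tumour library sat on very few barcodes. Cxcl9 was at 0.159 and 112 CPM and Cxcl10 at 0.238 and 56.0, with 81.0% and 90.9% of the tumour UMIs on 5 barcodes. The lymph node venule gene Glycam1 was at 0 and 207 UMIs (at least 92.4-fold higher), and all of those UMIs were on 5 barcodes. Of the adhesion genes that leukocytes bind, Vcam1 was lower (89.6 and 52.2 CPM, 0.582), and Icam1 at 23.9 and 16.6 CPM was not called.

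In old brains, which share no library with the young ones, the shared higher genes had smaller median ratios. Being chosen for passing 1.5-fold in all 4 young classes, they had to stand high there, so a smaller old ratio is no finding in itself. Of the 20 genes, 0 were called higher in all 4 classes of the old contrast, 9 in astrocytes (4.79% of all genes tested there), 10 in microglia (5.02%), 4 in oligodendrocytes (1.06%) and 3 in endothelium (2.71%). Their median log2 ratios were 0.56, 0.64, 0.10 and 0.13, against 2.39, 1.72, 1.70 and 2.08 in young brains. Of the interferon list, which shares Ifi27l2a with these genes, 20 of 30 tested genes were higher in old astrocytes (median 0.85), 6 of 28 in microglia (0.20), 3 of 12 in oligodendrocytes (0.32) and 0 of 34 in endothelium (-0.17). H2-Aa had an old ratio of 1.61 in astrocytes (18.0 and 29.0 CPM) and 2.95 in microglia (33.7 and 99.4), so the sham levels of the ages were close and the tumour levels apart. C4b differed also in sham: old sham astrocytes had 77.0 CPM and old sham oligodendrocytes 159.96, against 17.5 and 20.6 in young sham. Fabp7 in endothelium was higher in old tumour as well (17.7 and 710.5 CPM, 40.2, 33.9 to 47.9).

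Of the 9 lower genes 5 were also lower in all 4 old classes: Fos, Fosb, Junb, Atf3 and Hspa1a. By class, 5 were lower in astrocytes (4.17% of all genes tested there), 6 in endothelium (2.13%), 6 in oligodendrocytes (1.18%) and 5 in microglia (2.4%). Fos had lower ratios there, at 1925 CPM in old sham and 182 in old tumour endothelium (0.0945) and 668 and 155 in astrocytes (0.233). The old sham level was above the young sham level in each class, at 3447 CPM in microglia, 1925 in endothelium, 943 in oligodendrocytes and 668 in astrocytes, while old tumour levels were closer to the young tumour levels. Brd1 did not differ in old brains beyond 1.11-fold, with ratios of 1.11, 0.983, 1.11 and 0.991 and levels from 77.6 to 98.6 CPM, all above the young sham levels of the same class. S100a8 and S100a9 were higher in old tumour in all 4 classes. No difference between the ages was tested.

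**Figure D4:**
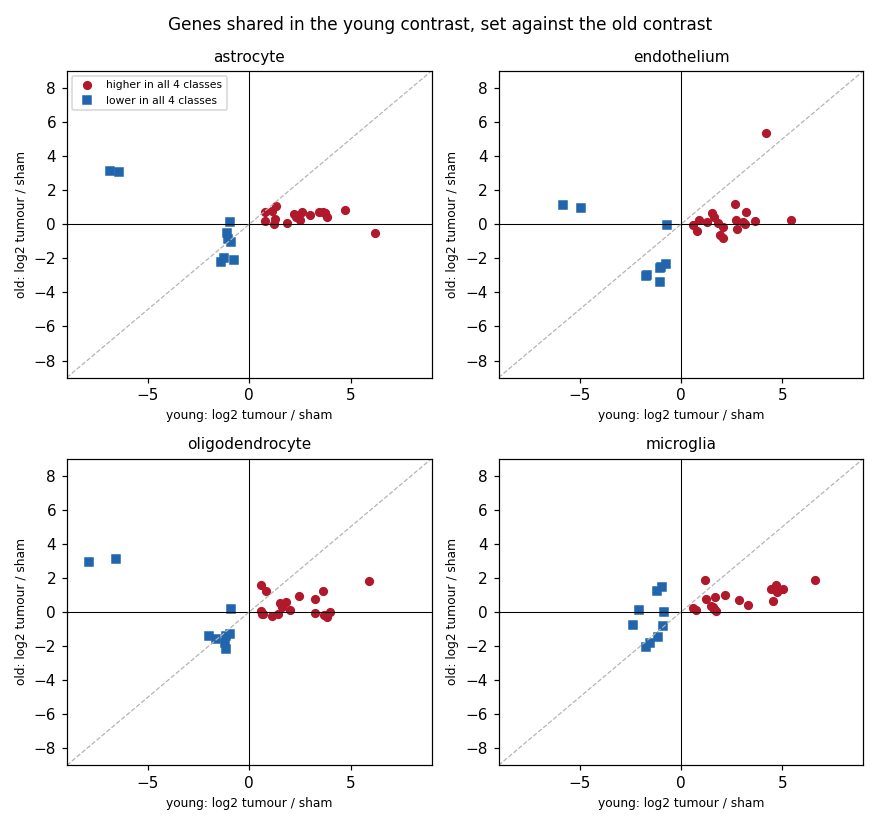
Log2 ratio of tumour over sham in old (y axis) against young brains (x axis) for 28 of the 29 shared genes in each class, Gm10076 not drawn; the dashed line marks equal ratios. Most genes higher in young tumour lie below the line, Fos, Fosb, Junb and Atf3 lie in the lower left, Brd1 lies near 0 on the old axis, and S100a8 and S100a9 lie in the upper left.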

How the data were processed

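Cells from the uninjected hemisphere were profiled by 10x 3' single-cell RNA sequencing in 4 libraries, 1 per group. As deposited, each matrix lists raw UMI counts, not normalized, of 32285 genes by barcode. The submitters' processing notes name Cell Ranger 3.0.2, Seurat 2.3.4 and mm10, whereas the matrix headers name Cell Ranger 6.1.0. The annotation release is not given in the sources used here.

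From the counts, class sums per gene and library were scaled to CPM. The 95% intervals are exact: conditional Poisson for a ratio of CPM and Clopper-Pearson for a share. Where a library had 0 UMIs, 3 were used in their place. UMIs of 1 library are not independent samples, so intervals cover counting error only. Each group is 1 library, so no p-value is given. Depth was 63548702 kept UMIs in young sham and 58896942 in young tumour.

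Named genes are those called in all 4 classes, the 12 highest and 12 lowest ratios over all barcodes, the 8 highest and lowest in each class, the 5 largest called in 1 class only, and members of 31 gene lists; Gm and Rik names were skipped, and Gm10076 was added after its value was seen. The members and lists were chosen with earlier results of these data known. Doublets were predicted with Scrublet (scanpy 1.11.5) for an alternative only and were otherwise kept. The calculations ran in Python 3.11.15 with numpy 2.4.6 and scipy 1.17.1 and were tested on simulated data. Promoters came from RefSeq (GRCm38.p6).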

Additional observations from a re-analysis of the deposited data

Results flagged for a closer look

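A few young ratios pointed the opposite way from the old ones, each with an interval clear of 1. S100a8 had a young ratio of 0.144 over all kept barcodes, 0.0117 in astrocytes, 0.0324 in endothelium, 0.00411 in oligodendrocytes and 0.441 in microglia, against old ratios of 2.41, 8.19, 1.93, 7.59 and 2.36. S100a9 had young ratios of 0.131, 0.00849, 0.0178, 0.0106 and 0.528 in the same order, against 2.57, 8.61, 2.20, 8.44 and 2.73. In endothelium Cd52, a surface peptide of leukocytes, was 4.26-fold higher in young tumour and at 0.573 in old, and Lyz2 was 3.82-fold higher and at 0.636. The difference between the ages was not tested, since each age has 1 library per group.

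The barcodes left out for Hmga2 were a signal outside the comparison: 510 in the young tumour library, 0 in the young sham library and 2 in the old tumour library. In the young tumour library they held 4855 CPM of Lgals1 and 2197 of H2-K1, against 198 and 965 in the kept barcodes. S100a4, Ccl5, Tmsb10 and H2-Q7 were higher there too, at 1381, 1202, 1226 and 382 CPM against 118, 645, 504 and 181. All other shared higher genes were lower there, apart from Gm10076, which was not looked at. Among them were Cd74 at 673 CPM against 3572 and C4b at 4.01 against 92.8.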

How the results depend on the processing

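No paired analysis was possible because each group is 1 library, and for the same reason no library could be left out. Removing predicted doublets (1095 sham and 979 tumour barcodes) left 5 shared higher genes and 45 lower genes in oligodendrocytes. Of the 20 main shared higher genes, 8 could then still be tested in every class. If the minimum of 10 CPM is ignored, 14 of the 20 kept the ratio and its interval. Without barcodes of more than 1 gate there were 12 shared higher and 1 shared lower gene, 105 lower genes in astrocytes, and 101 higher and 53 lower in oligodendrocytes. Doubling the gates left 13 shared higher genes and 118 higher and 159 lower in microglia. Thinning to 1000 UMIs left 13 shared higher genes, 211 higher in astrocytes, 224 lower in endothelium, 130 higher and 191 lower in oligodendrocytes, and 137 lower in microglia.

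At 2-fold there were 12 shared higher and 4 shared lower genes, 177 higher and 42 lower over all barcodes, 137 and 241 in astrocytes, 54 and 16 in endothelium, 36 and 26 in oligodendrocytes, and 109 and 86 in microglia. At a mean of at least 50 CPM there were 8 and 3 shared, 109 and 64 over all, 129 and 145 in astrocytes, 26 and 21 in endothelium, 16 and 20 in oligodendrocytes, and 58 and 75 in microglia. With no CPM filter there were 118 and 16 shared, 1308 and 1266 over all, 1403 and 1143 in astrocytes, 824 and 268 in endothelium, 423 and 541 in oligodendrocytes, and 626 and 1338 in microglia. Fewer or more genes were tested in these 2 filters by construction. The mean of per-barcode CPM gave 121 lower genes over all, 256 higher in astrocytes, 134 lower in endothelium and 141 lower in microglia, and centring on the median gave 121 lower over all.

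The 3 alternatives chosen after seeing the data are no Hmga2 filter, no leukocyte UMIs and leaving out the richest barcodes. With no Hmga2 filter there were 37 shared higher genes, 914 higher and 901 lower over all, 267 higher in endothelium and 412 in microglia. Without leukocyte UMIs there were 4 shared higher genes.

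Log2 ratios turned sign in these cases. Without doublets they were 0.33 for Cd14, -0.033 for Fabp7 and 0.042 for Lcn2 in oligodendrocytes, -1.07 for Glycam1 in endothelium and 0.16 for S100a9 in microglia. List medians were then -0.31 for hemoglobin in microglia, 0.42 for neuronal genes in oligodendrocytes, and 2.13, 0.80, 1.92 and 0.42 for neutrophil granule genes in astrocytes, endothelium, oligodendrocytes and microglia. Without barcodes of more than 1 gate, astrocytes had 0.17 for Adgrf5, 0.29 for Atf3, 0.56 for Ets1, 0.76 for Fos, 0.11 for Hrct1, 0.38 for Hspa1a, 0.44 for Junb, 0.86 for Kdr and 0.49 for Ptprb, and 0.30 for the immediate early list. Fabp7 in oligodendrocytes was then -0.36, and hemoglobin and neutrophil granule genes in microglia -0.31 and 0.10. Neutrophil granule genes in microglia were 0.34 at 50 CPM. With no CPM filter neuronal and tumour-like genes in oligodendrocytes were 0.12 and -0.053. Doubled gates gave -1.13 for neuropeptides in astrocytes, and thinning gave 0.70 for neuropeptides over all and 0.20 for Slc26a7 in microglia. Without leukocyte UMIs neutrophil granule genes were 0.21, 0.11 and 1.37 in astrocytes, endothelium and oligodendrocytes, and inflammatory genes in astrocytes -0.52. Without the 5 richest barcodes Fabp7 was -0.062 in microglia and -0.45 in oligodendrocytes. Causes were not tested. Of the other values, 99 counts, 1591 gene ratios and 1263 list medians stayed close to the main ones, and 923 gene ratios and 538 list medians moved further without turning.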

Other observations

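Genes of protein synthesis and division also differed. The 81 ribosomal protein genes took 7.52% of kept sham UMIs and 10.4% of tumour UMIs, with a median log2 ratio of 0.46 over all barcodes and 0.17 to 0.30 in the 4 classes. Of the 81, 15 were called higher over all barcodes. In astrocytes, endothelium, oligodendrocytes and microglia 1, 1, 0 and 1 were called higher, and none was called lower. Cell cycle genes were higher in 9 of 13 tested members over all barcodes, 10 of 12 in astrocytes, 5 of 10 in microglia, 0 of 6 in endothelium and 0 of 3 in oligodendrocytes. A list of genes of the Hmga2-rich barcodes was also higher, in 6 of 8 tested members in astrocytes (median log2 ratio 1.19), 5 of 8 in microglia and 6 of 12 over all barcodes. Neuroblast markers summed to 57.5 and 116 CPM in astrocytes with none at 0. The part of these cells was not tested. Mki67 and Top2a, genes of dividing cells, are themselves among the markers of the Hmga2-rich barcodes, so these groups of genes are not independent. Top2a, a DNA topoisomerase of dividing cells, stood at 12.9 and 35.8 CPM in sham and tumour astrocytes, and Mki67 at 8.20 and 19.7.

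Metabolic lists were nearly level. None of 32 nuclear oxidative phosphorylation genes and none of 13 mitochondrially encoded genes was called in any class or over all barcodes, and 1 cholesterol synthesis gene was, in microglia. Hemoglobin and red cell genes were lower in 4 of 4 tested members over all barcodes and in oligodendrocytes, and higher in 3 of 4 in microglia, with summed red cell markers of 974 and 54.5 CPM in oligodendrocytes and 270.2 and 484 in microglia.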
